A study of Mus musculus with 12 samples.

Results

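The comparison described here sets GC-2 cells that received both treatments of the study, MLN4924 at 1 µM and hypoxia at 1% O2 for 24 h, against cells that received neither, that is DMSO under normoxia for 24 h. Its members are 6 of the 12 libraries, 3 for each of these conditions, and they were chosen by the sample labels alone. GC-2 is a mouse line described by the submitters as type B spermatogonia of WT genotype. As background, the line was made by introducing the SV40 large T antigen together with mutant p53, so the replicates are cultures of 1 line and not animals. The series text calls them biological replicates. The other 6 libraries, 3 of DMSO under hypoxia and 3 of MLN4924 under normoxia, were used to ask where the joint treatment differed from either treatment alone. Below, "combined" means MLN4924 with hypoxia and "untreated" means DMSO with normoxia.

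MLN4924 inhibits the enzyme that activates NEDD8, a small ubiquitin-like protein. Cullin-RING ubiquitin ligases need NEDD8 on their cullin to work, and their substrates include NRF2, the replication licensing factor CDT1 and the inhibitor of NF-kB. Low oxygen stabilises HIF transcription factors, which a cullin-RING ligase with VHL otherwise marks for destruction, and these switch on genes of glycolysis, blood vessel growth and mitophagy. In the testis, the seminiferous epithelium has no blood vessels of its own, so germ cells live at low oxygen. The series asks how blocking neddylation bears on hypoxic death of the cells.

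The values are FPKM, that is fragments scaled by transcript length and by the number of mapped fragments, and the depth of each library is unknown. The 6 libraries had totals of 534946 to 553966 FPKM, and 11496 to 11644 genes reached 1 FPKM in each. Mean Spearman correlations with the other libraries of the same group were 0.978 to 0.980. Genes encoded in mitochondrial DNA took 7.25% to 7.64% of FPKM in the combined libraries and 10.4% to 12.5% in the untreated ones. Of these genes mt-Atp8 alone had means of 20373 FPKM combined and 34911 untreated. Among the libraries used only for the comparison with single treatments, DMSO hypoxia replicate 1 stood apart (633597 FPKM and a correlation of 0.927), so results that use it are also given without it.

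Markers of the labelled cell type were mostly near 0. Of 20 spermatogonial markers, 11 could be read and 4 reached 1 FPKM in at least 3 of the 6 libraries, and Kit, a receptor of differentiating spermatogonia, and Ddx4, an RNA helicase of germ cells, did not exceed 0.04 FPKM in any of them. The summed level of these markers was 27.0 to 28.3 FPKM untreated and 25.4 to 30.3 combined. Most of that sum was Uchl1 (11.1 to 14.7 and 10.8 to 15.5) and Etv5 (6.72 to 7.28 and 9.97 to 10.5). Etv5 was higher in the combined libraries, whereas Gfra1 was lower (4.82 to 6.23 and 1.14 to 2.33). None of the 6 readable markers of spermatocytes and spermatids reached the filter. Fibroblast and peritubular markers summed to 2940 to 3083 FPKM untreated and 2222 to 2360 combined, and Sertoli cell markers to 149 to 161 and 125 to 135. The fibroblast sum rested on S100a4 (1716 to 1833 FPKM untreated and 888 to 1034 combined), Col1a1 (612 to 625 and 451 to 474) and Col1a2 (533 to 546 and 438 to 443). Acta2 in the same list rose, and 5 of its 13 readable members stayed under 1 FPKM in all 6 libraries. Leydig cell markers summed to 35.5 to 37.7 and 25.8 to 30.1, and macrophage and leukocyte markers to 10.4 to 13.7 and 12.7 to 14.5. Most of the Sertoli sum was Ctsl (89.1 to 96.8 and 78.7 to 84.9) and Clu (26.2 to 33.7 and 26.4 to 27.6). The Sertoli markers Amh and Fshr did not exceed 0.23 FPKM. Nr5a1 made up most of the Leydig sum (23.8 to 25.6 and 20.6 to 23.5). Cd14 made up most of the macrophage sum (8.58 to 11.4 and 9.06 to 10.4). The part of these shifts in the gene results was not tested, and in bulk RNA a change in the mix of cells and a change in RNA per cell cannot be told apart.

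The combination changed genes across the whole transcriptome, mostly by small amounts. Of 11796 tested genes, that is, genes that reached 1 FPKM in 3 or more of these 6 libraries, 2372 rose (20.1%) and 3413 fell (28.9%), 49.0% in all. These shares are the background for every count of list members that rose or fell below. Here "rose" and "fell" stand for a difference on the log2(FPKM + 1) scale with a Benjamini-Hochberg adjusted p under 0.05 in limma. The median size among called genes was 0.49 on the log2 scale, 309 genes rose and 351 fell at least 2-fold, and 51 rose and 26 fell at least 4-fold. The median over all tested genes was -0.07, and the median standard error (SE) was 0.09. Of the called genes 41.0% had risen, or 51.4% under median-of-ratios scaling, which lifted the median by 0.07. Rescaling to equal totals without mitochondrially encoded genes went the other way, to 32.7%, and lowered the median by 0.06. All fold changes are on the FPKM + 1 scale, which understates the change of genes with low levels.

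**Figure D1:**
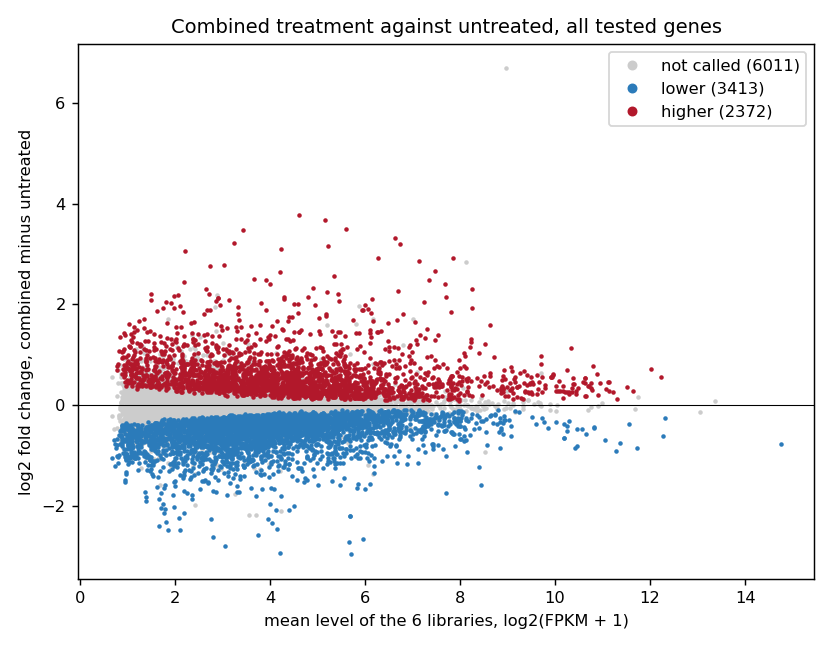
Mean level of the 6 libraries in log2(FPKM + 1), on the horizontal axis, against the log2 fold change of combined minus untreated for each of 11796 tested genes. The 2372 genes that rose (red) and the 3413 that fell (blue) lie across the whole range of levels, and few lie beyond 2 log2 units.

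Among the largest rises, Ptx3, a secreted pentraxin of innate immunity, stood at 6.37, 7.99 and 6.56 FPKM in the untreated libraries and at 84.4, 94.0 and 87.8 in the combined ones. The groups lay far apart, with an 11.3-fold rise (SE 0.09 on the log2 scale, n = 3 per group, limma adjusted p = 1.84e-06). Ccn2, a matricellular target of YAP, went from 3.87, 4.69 and 3.91 FPKM to 68.1, 59.2 and 67.4, a 12.8-fold rise. Edn1, which encodes the vasoconstrictor endothelin 1, was below 1 FPKM in each untreated library (0.77 to 0.90) and between 14.2 and 17.4 in each combined one. Ptgs2, the inducible cyclooxygenase, rose 8.96-fold. Adm, the vasodilator adrenomedullin, rose from 0.68 to 0.99 FPKM to 16.9 to 20.6, and Ero1a, an oxidase that makes disulfide bonds in the endoplasmic reticulum, rose 9.98-fold. Among contractile genes Tagln rose 8.64-fold, and Acta2, smooth muscle actin, 7.62-fold, the latter from 50.2, 54.8 and 52.5 to 423, 392 and 404 FPKM. Cdkn1a, which encodes the cell cycle inhibitor p21, rose from 16.7, 18.3 and 15.9 to 138, 134 and 135 FPKM (log2 fold change 2.93 ± 0.05, adjusted p = 1.39e-06). The rule for naming these genes required that the lowest combined library lie above the highest untreated one, which held for 24.3% of all tested genes (59.4% had groups apart in either direction).

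For 2 genes among the 12 largest rises the assignment of reads is uncertain. Prl2c2, a proliferin of the prolactin family, rose 9.17-fold from 19.7, 21.8 and 18.7 to 206, 183 and 186 FPKM, and its paralogs are close in sequence. Its mean was 525 FPKM under MLN4924 alone and 8.24 under hypoxia alone. The combined level was thus below that under MLN4924 alone (log2 difference -1.45, limma adjusted p = 6.13e-05). Rps6-ps4, named as a pseudogene of a ribosomal protein, was at 20.9, 0.01 and 0 FPKM untreated and at 29.8, 29.8 and 59.3 combined. Its untreated libraries disagreed with each other, and its call (log2 fold change 3.78 ± 1.18, adjusted p = 0.0362) ended without any 1 of 5 libraries, MLN4924 hypoxia replicate 1 (0.0738), 2 (0.0780) or 3 (0.0995) and DMSO normoxia replicate 2 (0.103) or 3 (0.102).

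Among the largest falls, Ifit3, an interferon-induced antiviral protein, stood at 89.1, 80.3 and 105 FPKM untreated and at 9.37, 12.9 and 10.3 combined. It fell by 2.97 on the log2 scale (SE 0.14, adjusted p = 1.59e-05), and its close paralog Ifit3b, whose reads are hard to separate from it, fell by 2.95. Uba7, the activating enzyme of the ubiquitin-like ISG15, fell from 16.5, 26.8 and 22.2 FPKM to 1.99, 4.81 and 2.09. The monocyte chemokine genes Ccl2 and Ccl7 fell 6.60-fold and 6.31-fold, Ccl2 from 81.2, 87.8 and 92.2 to 14.6, 12.1 and 10.6 FPKM. Klf2, a Krüppel-like transcription factor, dropped from 12.8, 14.2 and 13.9 FPKM to 1.00, 1.13 and 1.18. Dbp, a PAR bZIP transcription factor of the circadian output, fell from 6.37, 5.66 and 6.94 FPKM to 0.29, 0.48 and 0.16. The water channel gene Aqp5 fell 5.53-fold, the myotonic dystrophy kinase gene Dmpk 5.07-fold and the homeodomain-only gene Hopx 4.83-fold. Lgals2, a galectin, was at 4.93 to 5.45 FPKM untreated and at 0 to 0.33 combined. Plekhg4 was lower in every combined library (0, 1.54 and 0 FPKM) than in any untreated one (5.43, 9.69 and 2.89), with a wide spread within the untreated group. The groups did not overlap for any of these 12 genes, which the rule for naming them required, and 35.1% of all tested genes were apart in this direction.

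**Figure D2:**
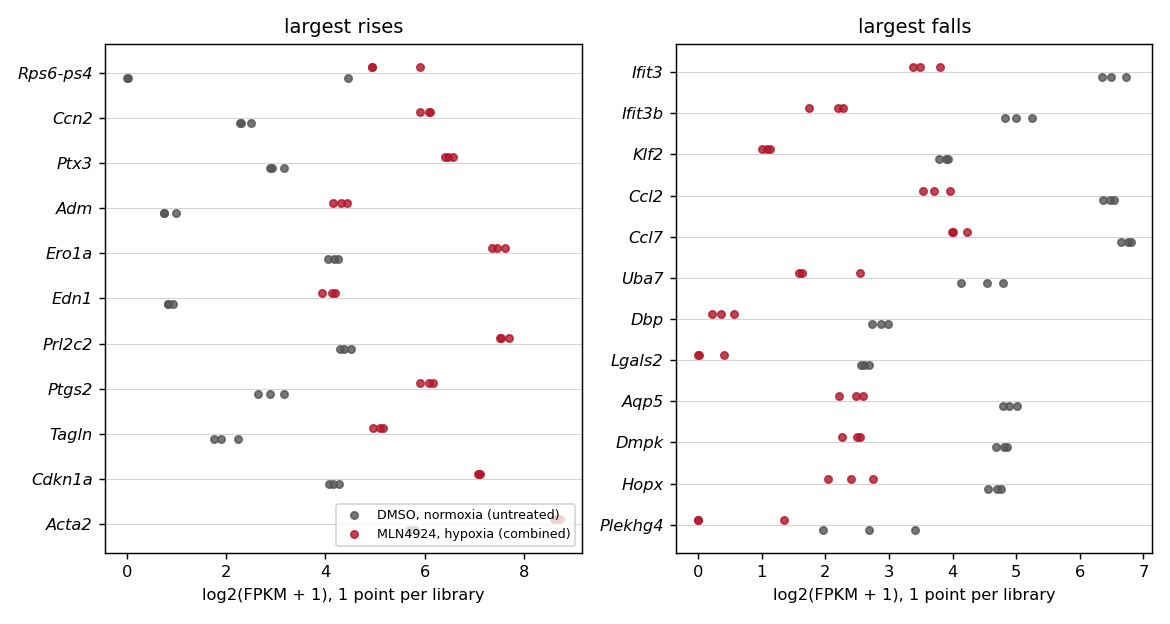
Level of each library in log2(FPKM + 1) for 11 of the 12 genes with the largest rises (left) and the 12 with the largest falls (right), grey for untreated and red for combined, 1 point per library. The groups are apart for each gene, and the untreated libraries of Rps6-ps4 spread from 0 to 20.9 FPKM.

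Of 39 tested HIF targets outside glycolysis 34 rose and 1 fell, against 20.1% and 28.9% of all genes, with a median log2 fold change of 1.16. Vegfa, the main angiogenic growth factor, rose from 37.3, 36.8 and 35.4 FPKM to 98.03, 97.34 and 105.14 (log2 fold change 1.43 ± 0.04, adjusted p = 3.14e-06). Bnip3, which marks mitochondria for mitophagy, rose 2.48-fold, from 181, 166 and 169 to 411, 462 and 412 FPKM, and its relative Bnip3l rose 2.26-fold. In contrast, Hif1a transcripts themselves fell by 0.64, from 46.2, 46.9 and 45.8 FPKM to 30.2, 28.1 and 29.5. The second HIF alpha subunit gene, Epas1, did not reach the filter.

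Of 21 tested glycolysis genes 16 rose and 1 fell, and their median log2 fold change was 0.38. The glucose transporter gene Slc2a1 rose 3.15-fold, from 62.5, 65.2 and 62.4 FPKM to 199, 199 and 208, and Hk2, the first kinase of the pathway, rose 2.67-fold. Pgk1, a kinase that yields ATP, rose 1.63-fold. The enzymes at the branch to lactate moved little. Ldha, the A subunit of lactate dehydrogenase, was at 1076, 1098 and 1105 FPKM untreated and at 1242, 1215 and 1144 combined, and its log2 fold change of 0.13 (95% interval 0.04 to 0.22, adjusted p = 0.0250) lost its call in 11 of the 17 alternatives tried. Pdk1, which holds pyruvate back from the mitochondrion, rose 1.22-fold. The member that fell was Pfkfb4, a regulator of fructose 2,6-bisphosphate, from 5.62 to 7.38 FPKM to 1.52 to 2.55, and its call ended in 2 alternatives.

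The HIF core motif ACGTG, searched on both strands from 250 bases before to 50 after each start site, was found in 24 of the 31 listed HIF targets with a promoter entry (77.4%), in 13 of 21 glycolysis genes (61.9%), in 30.3% of 8945 tested genes and in 19.6% of all 32851 promoters. Here and for the elements below, a gene counted if any of its listed promoters matched, whereas the share of all promoters counted each entry by itself. A palindrome CACGTG counts on each strand, and a match is a description of the sequence, not of binding. Promoters of 3 members are shown, from RefSeq on GRCm38.p6, 5′ to 3′, with matches in capitals: Bnip3 at chr7:138909457-138909756 on the minus strand, Ero1a at chr14:45318523-45318822 on the minus strand, and the first of the 2 Ldha entries (the other holds no match) at chr7:46845554-46845853 on the plus strand.
Bnip3: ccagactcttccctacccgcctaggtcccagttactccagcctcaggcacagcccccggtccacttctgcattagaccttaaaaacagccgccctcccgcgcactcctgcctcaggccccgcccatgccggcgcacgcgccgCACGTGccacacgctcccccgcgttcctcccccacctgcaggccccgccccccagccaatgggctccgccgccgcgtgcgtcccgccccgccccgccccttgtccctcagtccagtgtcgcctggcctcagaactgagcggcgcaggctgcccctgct
Ero1a: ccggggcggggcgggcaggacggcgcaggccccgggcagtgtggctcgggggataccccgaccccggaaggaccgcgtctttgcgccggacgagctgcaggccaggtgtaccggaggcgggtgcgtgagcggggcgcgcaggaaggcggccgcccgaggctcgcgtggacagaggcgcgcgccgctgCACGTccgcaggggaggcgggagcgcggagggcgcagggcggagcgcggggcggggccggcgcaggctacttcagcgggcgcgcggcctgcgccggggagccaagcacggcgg
Ldha: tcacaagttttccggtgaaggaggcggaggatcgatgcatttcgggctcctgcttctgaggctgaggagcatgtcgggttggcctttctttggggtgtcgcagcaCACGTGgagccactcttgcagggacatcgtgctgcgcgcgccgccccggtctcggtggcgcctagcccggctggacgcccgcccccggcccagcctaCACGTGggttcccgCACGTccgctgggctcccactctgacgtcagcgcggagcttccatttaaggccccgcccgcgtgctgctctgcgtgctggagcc
The matches sit beside genes that rose by different amounts, Ero1a 9.98-fold, Bnip3 2.48-fold and Ldha 1.10-fold.

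The integrated stress response, in which ATF4 switches on amino acid supply and, when stress lasts, death genes, had the highest median of the lists at 1.27. Of its 46 tested members 41 rose and 1 fell. Chac1, which degrades glutathione, rose from 11.1, 10.2 and 10.98 FPKM to 71.3, 66.8 and 68.1, a log2 fold change of 2.57 ± 0.05 (adjusted p = 1.49e-06). Ddit3, which encodes the death-promoting factor CHOP, rose 4.31-fold, from 25.8, 25.8 and 24.9 to 113, 119 and 107 FPKM. Trib3, a pseudokinase downstream of ATF4 and CHOP, rose 4.60-fold, and Asns, the asparagine synthetase, rose 4.12-fold. Atf4 transcripts rose 1.95-fold, from 183, 184 and 185 to 366, 359 and 357 FPKM. Atf3, a stress factor of the same family, went from 1.89, 2.44 and 2.71 FPKM to 13.2, 12 and 14.6. The stress cytokine gene Gdf15 rose 5.47-fold with wide spread, and the lipoprotein receptor gene Vldlr rose 5.31-fold.

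The ATF4 element TGATGNAA, where N is any base, was present on either strand in 16 of 40 members of this list with a promoter entry (40%), in 2.52% of tested genes and in 3.97% of all promoters. It is shown in capitals for Chac1 at chr2:119350992-119351291 on the plus strand, Asns at chr6:7693160-7693459 on the minus strand and Trib3 at chr2:152344011-152344310 on the minus strand, each of which rose at least 4-fold.
Chac1: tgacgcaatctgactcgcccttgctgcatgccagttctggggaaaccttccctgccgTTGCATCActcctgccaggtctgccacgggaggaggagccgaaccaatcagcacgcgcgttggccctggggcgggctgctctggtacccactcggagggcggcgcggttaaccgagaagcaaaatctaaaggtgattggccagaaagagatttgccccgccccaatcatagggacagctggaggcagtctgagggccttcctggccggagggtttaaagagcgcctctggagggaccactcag
Asns: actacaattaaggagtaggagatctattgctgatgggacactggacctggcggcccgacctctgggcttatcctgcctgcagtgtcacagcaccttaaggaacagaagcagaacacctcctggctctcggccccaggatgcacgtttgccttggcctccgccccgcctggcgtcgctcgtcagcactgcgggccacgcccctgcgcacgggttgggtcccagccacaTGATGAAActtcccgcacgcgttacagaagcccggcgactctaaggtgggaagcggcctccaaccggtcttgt
Trib3: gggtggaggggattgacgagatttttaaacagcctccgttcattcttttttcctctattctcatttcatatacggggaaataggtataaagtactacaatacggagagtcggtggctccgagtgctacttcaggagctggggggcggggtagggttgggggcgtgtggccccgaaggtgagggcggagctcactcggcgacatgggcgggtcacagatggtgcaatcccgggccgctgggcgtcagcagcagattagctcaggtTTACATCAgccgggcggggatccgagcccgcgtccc
Each window holds 1 match.

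NRF2 activates genes of glutathione, thioredoxin and quinone detoxification. Of 38 tested NRF2 targets 24 rose and 6 fell, with a median of 0.37. Hmox1, a heme oxygenase, rose from 74.5, 76.1 and 76.2 FPKM to 312, 350 and 350 (log2 fold change 2.14 ± 0.05, adjusted p = 1.60e-06). The cystine transporter gene Slc7a11 rose 3.96-fold, from 2.05, 2.04 and 2.23 to 12.1, 11.2 and 10.6 FPKM, and Txnrd1, thioredoxin reductase, rose 3.72-fold. Nqo1, the quinone reductase, rose 1.76-fold. Nfe2l2, which encodes NRF2, rose by 0.12 on the log2 scale (adjusted p = 0.0220), and Keap1, its adaptor to CUL3, fell by 0.55 (adjusted p = 0.0267). Both calls were weak: Nfe2l2 lost its call in 10 of 17 alternatives and Keap1 in 6. The antioxidant element TGACNNNGC, on either strand, was present in 30% of 30 NRF2 targets with a promoter entry and in 17% of tested genes.

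Of 33 proteasome subunits and partners 28 fell and 1 rose, with a median of -0.41. Psmd1, a subunit of the regulatory particle, fell 2.03-fold, from 121, 117 and 114 FPKM to 55.7, 57.3 and 59.0, and Psmb2, of the catalytic core, fell 1.82-fold. The exception was Psmd8, which rose 1.79-fold. Among heat shock genes 3 of 20 rose and 12 fell. Hspa1b, an inducible HSP70 nearly identical to Hspa1a, fell 3.33-fold, from 323, 318 and 317 FPKM to 98.9, 88.8 and 97.9, and the cochaperone gene Bag3 fell 1.82-fold. Of 24 genes of the endoplasmic reticulum unfolded protein response 4 rose and 11 fell, beside 20.1% and 28.9% of all tested genes. Hspa5, the chaperone BiP, had a log2 fold change of -0.12 (95% interval -0.25 to 0.02, adjusted p = 0.141), whereas Dnajb9, a BiP cochaperone, rose by 0.83.

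Interferon-stimulated genes had the lowest list median, -0.79, and 36 of 46 fell while 1 rose. Ifit1 fell 4.62-fold, from 83.4, 76.9 and 90.0 FPKM to 17.7, 17.7 and 16.3. Isg15, the ubiquitin-like modifier that Uba7 activates, fell 1.44-fold, from 533, 483 and 580 to 390, 363 and 351 FPKM. Neither gene overlapped between the groups, and both were well expressed in untreated cells. Of 15 genes of MHC class I and the immunoproteasome 12 fell and 1 rose, among them Psmb10, an immunoproteasome subunit, which fell 2.70-fold, and the peptide transporter gene Tap2, which fell 1.77-fold. Of 23 NF-kB and inflammatory genes 5 rose and 9 fell. Besides Ccl2 and Ccl7, the chemokine gene Cxcl10 fell from 90.8, 92.8 and 102 FPKM to 57.5, 61.2 and 63.1, and the inhibitor genes Nfkbia and Nfkbie fell by 0.69 and 1.28. Ptgs2 and Tnfaip3, an inhibitor of NF-kB signalling, rose.

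The interferon element, GAAA, 2 bases of any kind and GAAA again, on either strand, was present in 18 of 36 interferon-stimulated genes with a promoter entry (50%), in 3.83% of tested genes and in 3.44% of all promoters. Overlapping matches are merged in the capitals below, for Ifit3 at chr19:34583279-34583578 on the plus strand and Isg15 at chr4:156200769-156201068 on the minus strand.
Ifit3: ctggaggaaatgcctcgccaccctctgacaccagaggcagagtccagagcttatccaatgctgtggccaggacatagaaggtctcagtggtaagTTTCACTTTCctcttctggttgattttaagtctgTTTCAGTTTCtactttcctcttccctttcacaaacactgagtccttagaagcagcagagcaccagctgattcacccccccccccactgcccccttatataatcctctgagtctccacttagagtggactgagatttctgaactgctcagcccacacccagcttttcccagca
Isg15: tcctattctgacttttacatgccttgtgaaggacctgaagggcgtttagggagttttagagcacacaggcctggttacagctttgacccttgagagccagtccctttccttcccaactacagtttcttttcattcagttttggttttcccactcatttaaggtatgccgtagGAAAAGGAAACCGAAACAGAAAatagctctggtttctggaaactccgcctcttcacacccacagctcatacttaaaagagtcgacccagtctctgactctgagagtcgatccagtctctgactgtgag
The promoters hold 2 and 3 matches, and the transcripts fell by 2.97 and 0.53 on the log2 scale.

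In the cell cycle, genes of DNA replication rose while mitotic genes moved in both directions. Of 52 G1/S and DNA replication genes 32 rose and 4 fell, with a median of 0.27. Rrm2, the small subunit of ribonucleotide reductase, rose from 61.4, 60.1 and 56.8 FPKM to 103, 115 and 105, and E2f1 rose 1.59-fold. The licensing factor gene Cdt1, whose protein is a substrate of cullin-RING ligases, rose 1.22-fold and its inhibitor Gmnn rose 1.73-fold. Of 48 G2/M genes 15 rose and 13 fell (median -0.04): the spindle genes Tpx2 and Kif23 rose 1.58-fold and 1.56-fold, whereas Cdc20, an activator of the anaphase-promoting complex, fell from 102, 102 and 97.2 FPKM to 74.2, 66.6 and 63.0. Cdc25b, a phosphatase that starts mitosis, fell 1.60-fold. Of 36 DNA repair genes 14 rose and 3 fell, and Nbn, of the break sensor complex, fell by 0.64.

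Cell death genes showed no common direction. Of 28 promoters of death 10 rose and 10 fell, and of 15 opponents 2 rose and 5 fell, with medians of -0.08 and -0.12 beside -0.07 for all genes. Bbc3, the BH3-only protein PUMA, rose from 1.51, 1.44 and 2.24 FPKM to 4.45, 5.50 and 6.12 (log2 fold change 1.22 ± 0.16, adjusted p = 9.61e-04), and Pmaip1, the BH3-only protein NOXA, rose 1.85-fold from 1.79 to 2.32 FPKM to 4.48 to 4.78. Mcl1, an anti-apoptotic protein that NOXA binds, fell from 58.3, 57.8 and 57.6 FPKM to 40.8, 41.7 and 41.7 (log2 fold change -0.47 ± 0.03, adjusted p = 6.85e-05). Cflar, which blocks caspase 8, and Birc6 also fell, but the calls ended in 11 and 8 of the 17 alternatives. Against this, Bid, a BH3-only protein cut by caspase 8, fell from 9.35, 8.95 and 7.55 FPKM to 3.75, 3.17 and 1.69. Bax, Bcl2l11 (BIM) and Bcl2l1 (BCL-XL) had overlapping groups and did not pass, with log2 fold changes of -0.07, 0.08 and 0.01. Their 95% intervals were -0.20 to 0.07, -0.16 to 0.32 and -0.50 to 0.52.

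Of 30 p53 targets 11 rose and 6 fell, beside 20.1% and 28.9% of all tested genes, with a median of -0.03. Cdkn1a and Gadd45a, a growth arrest gene that rose 3.53-fold from 28.4, 29.7 and 31.5 to 110, 112 and 102 FPKM, led the rises. Mdm2, the ligase that p53 itself induces, did not pass (log2 fold change -0.07, 95% interval -0.27 to 0.13), and Trp53 fell from 2118, 2077 and 2056 FPKM to 1615, 1437 and 1550. Introduced and endogenous transcripts of Trp53 cannot be told apart in these values.

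Among the genes of the pathway that MLN4924 inhibits, 2 of 26 neddylation and COP9 signalosome genes rose and 14 fell. Those that rose encode the subunits of the target enzyme itself, Uba3 from 57.4, 58.3 and 59.9 FPKM to 75.5, 89.3 and 77.6 and Nae1 from 14.7, 14.5 and 14.7 to 17.1, 20.2 and 17.8. Nedd8 fell by 0.27, Ube2m, its main conjugating enzyme, did not pass (0.03, 95% interval -0.21 to 0.26), and Rbx1, the RING subunit of the ligases, fell by 0.52. The COP9 subunit genes Cops7a and Cops3, whose complex removes NEDD8 from cullins, fell by 0.59 and 0.57. Of 33 cullin-RING ligase parts 6 rose and 10 fell, shares near the background of 20.1% and 28.9% of all tested genes. The split turned to 10 and 6 under median-of-ratios scaling. Cul1 fell by 0.45, Cul4b by 0.71 and Cul5 by 0.41, while Cul2 had 0.08 (95% interval -0.13 to 0.28). Cul3 (-0.20) and Cul4a (-0.14) passed narrowly, and their calls ended in 4 and 9 of the 17 alternatives, median-of-ratios scaling among them. The calls of Nae1, Nedd8 and Cul5 each ended in 1 alternative. It was the limma fit of all 12 libraries with shared spread (adjusted p = 0.0563, 0.0971 and 0.400). Among the same parts, Socs2 and the F-box gene Fbxo5 rose. Of 18 transcripts whose proteins are cullin-RING ligase substrates 9 rose and 8 fell, led by Cdkn1a, Myc and Jun upwards and by Rhob, which fell by 0.98.

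YAP, SRF and cytoskeleton targets were the third list by median, 0.63, with 28 of 34 members up and 1, Klf2, down. Of 30 extracellular matrix genes 14 rose and 9 fell, beside 20.1% and 28.9% of all tested genes. Fibronectin, Fn1, rose by 1.58 and Fbln5, an elastic fibre protein, rose from 8.96, 10.1 and 9.72 FPKM to 38.5, 38.5 and 33.3, and Nid1 and Col12a1 rose by 1.37 and 1.22.

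Ribosomal proteins of the cytosol rose in 47 of 51 cases and fell in 0, with a median of 0.43, for example Rpl10a from 321, 315 and 292 to 472, 484 and 480 FPKM. Of 13 mitochondrially encoded transcripts 9 fell and 0 rose (median -0.66), with mt-Nd1 at 4727, 3974 and 4312 FPKM untreated and 2443, 2357 and 2423 combined. The other 4 did not pass, and among them was the highest log2 fold change of the list, 2.85. Of 45 nuclear-encoded respiratory chain genes 7 rose and 20 fell (median -0.07, as for all genes), or 13 and 15 under median-of-ratios scaling. Of 35 autophagy and lysosome genes 9 rose and 16 fell, with Neu1, a lysosomal sialidase, down 2.93-fold and Atp6v0d1, a proton pump subunit, down 2.23-fold. Cholesterol biosynthesis genes were divided, 7 up and 7 down of 24, shares near the 20.1% and 28.9% of all tested genes. Among identity markers, 1 of 4 spermatogonial genes rose and 1 fell, 1 of 8 Sertoli genes rose and 4 fell, 1 of 2 Leydig genes fell, 2 of 8 fibroblast genes rose and 5 fell, and 1 of 2 macrophage genes rose. The fibroblast list holds Acta2, which is also among the SRF targets. The Leydig marker that fell was Star, the cholesterol carrier of steroid synthesis, by 0.99, and Gfra1, the GDNF receptor of spermatogonial stem cells, fell by 1.39.

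**Figure D3:**
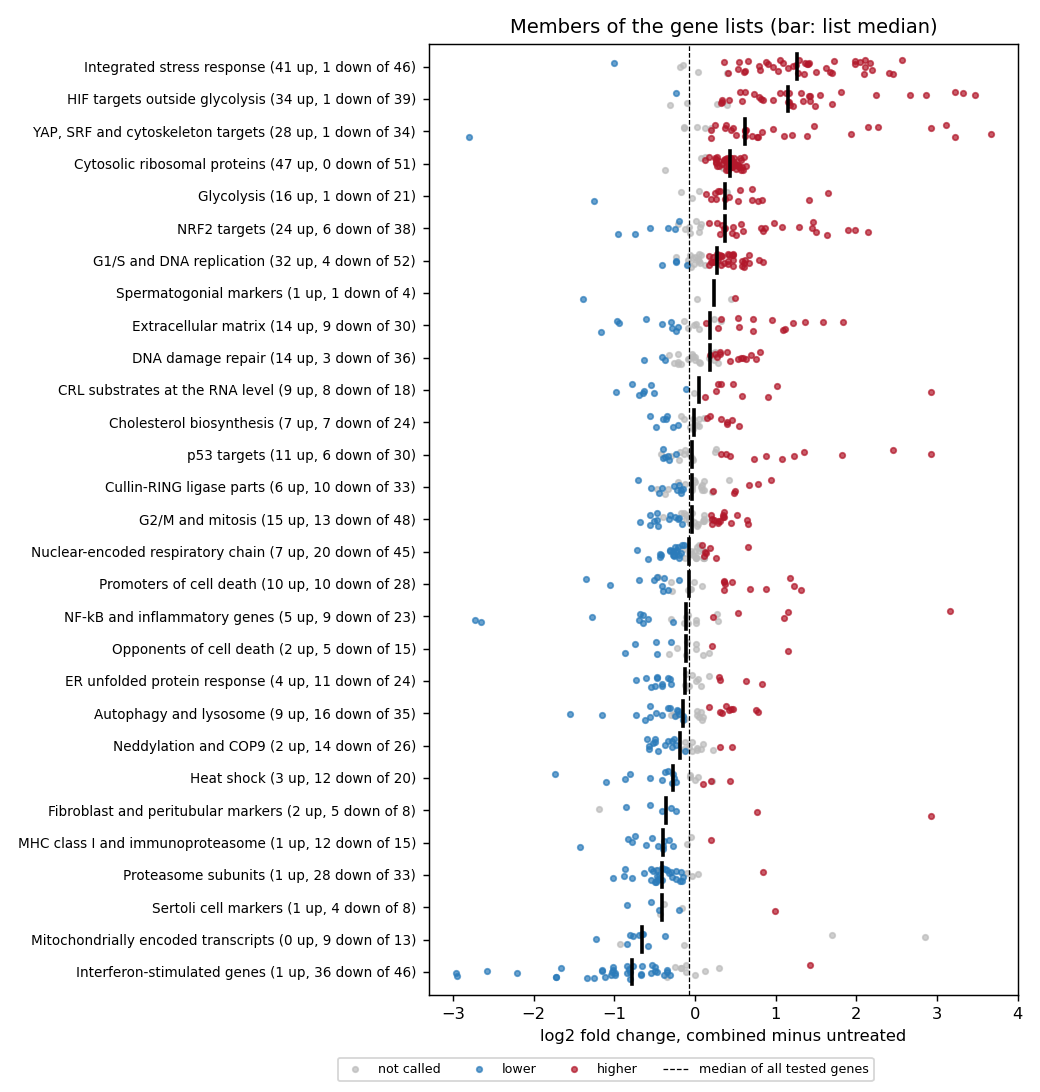
Log2 fold change of combined minus untreated for each tested member of the gene lists with at least 3 tested members, ordered by list median (black bar), with genes that rose in red, fell in blue and did not pass in grey. The medians of the integrated stress response, HIF and YAP/SRF lists lie to the right of the dashed line at the median of all genes (-0.07). Those of the interferon and mitochondrially encoded lists lie to the left, with single members on the other side.

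How the combined level relates to each treatment alone was tested in a fit of all 12 libraries. Against hypoxia alone, 1491 of the 11796 genes were higher (12.6%) and 1610 lower (13.6%), and against MLN4924 alone 1430 were higher (12.1%) and 2025 lower (17.2%). Without DMSO hypoxia replicate 1 these became 2071 (17.6%), 1902 (16.1%), 2189 (18.6%) and 3014 (25.6%). These comparisons share the combined libraries.

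In glycolysis the combined level lay between the single treatments. Of 21 genes 15 were lower than under hypoxia alone and 19 higher than under MLN4924 alone (17 and 19 without the library that stood apart). Ldha had means of 1093 FPKM untreated, 2038 under hypoxia, 638 under MLN4924 and 1200 under both. The joint level lay closest to the untreated one. HIF targets outside glycolysis followed the same order in part, with 24 of 39 lower than under hypoxia alone, 5 higher, and 32 higher than under MLN4924 alone (25, 5 and 34 without that library). Bnip3, for example, was at 172 untreated, 844 under hypoxia, 80.9 under MLN4924 and 428 under both.

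NRF2 targets were higher than under hypoxia alone in 28 of 38 cases, and 15 were lower and 4 higher than under MLN4924 alone (32, 20 and 5 without DMSO hypoxia replicate 1). Nqo1 shows this order, with 30.5 FPKM untreated, 18.4 under hypoxia, 58.9 under MLN4924 and 54.3 under both, and the last pair did not differ past the threshold (log2 difference -0.11, adjusted p = 0.312). Acta2 was at 52.5, 27.9, 371 and 406 FPKM in the same order of groups, and 23 of 34 YAP and SRF targets were higher than under hypoxia alone (25 without that library). Against MLN4924 alone, 7 of these targets were higher and 2 lower (10 and 8 without that library), and Ccn2 was above all 3 other groups (adjusted p = 0.00931). In the proteasome list 25 of 33 genes were lower than under MLN4924 alone, and 2 were higher and 0 lower than under hypoxia alone. Without the library that stood apart, 29 were lower than under MLN4924 alone and 18 higher than under hypoxia alone. Psmd1 was at 117, 56.6, 112 and 57.3 FPKM. Mitochondrially encoded genes were lower than under MLN4924 alone in 6 of 13 cases (9 without that library) and higher in 0.

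Whether the combined change differed from the sum of the single changes on the log2 scale was tested by the interaction. It was positive for 118 genes (1.00%) and negative for 110 (0.933%), 1.93% in all, and without DMSO hypoxia replicate 1 for 416 (3.53%) and 270 (2.29%). Leaving out each library in turn gave 43 to 416 positive and 48 to 270 negative interactions. Among the lists, G2/M genes took the largest share of the negative side, 22 of 48, or 35 without that library. Single treatments had list medians of 0.29 (hypoxia) and 0.25 (MLN4924) and the combination -0.04, and 28 of 48 were lower than under hypoxia alone and 16 lower than under MLN4924 alone (35 and 27 without that library). Cdc20 was at 100 ± 2.53 FPKM (SD, n = 3) untreated, 105 ± 3.46 under hypoxia, 128 ± 1.17 under MLN4924 and 67.9 ± 5.76 under both, with an interaction of -0.97 ± 0.08 (adjusted p = 0.00130). Interferon-stimulated genes lay on the positive side, 14 of 46, or 30 without that library. Ifit3 had means of 91.6 FPKM untreated, 6.98 under hypoxia, 50.2 under MLN4924 and 10.9 under both, and was low in both hypoxic groups. Of this list, 26 genes were higher under both treatments than under hypoxia alone and 28 were lower than under MLN4924 alone (31 and 34 without that library).

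**Figure D4:**
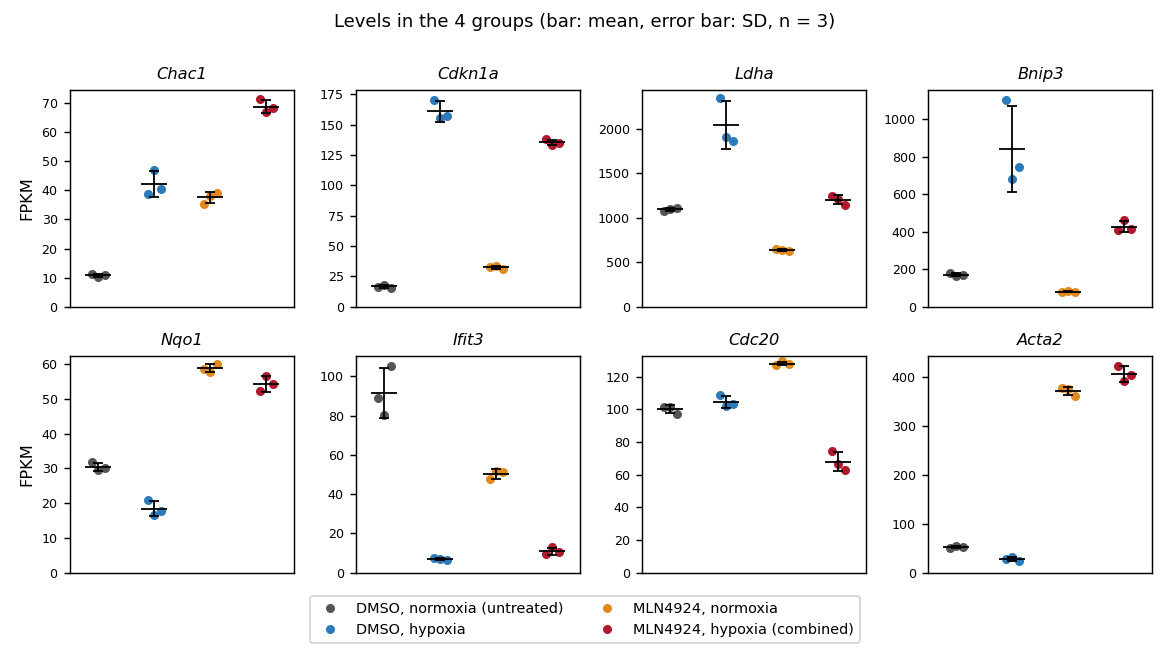
FPKM in each of the 12 libraries for 8 genes, by group, with the mean (bar) and SD (error bar, n = 3) and each vertical axis starting at 0. Chac1 is highest and Cdc20 lowest under both treatments, Ldha and Bnip3 lie between the single treatments, Nqo1 and Acta2 lie near MLN4924 alone, and Ifit3 and Cdkn1a near hypoxia alone.

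Genes that were highest or lowest under both treatments together were found by requiring a difference of 1 sign from each of the other 3 groups. There were 116 such genes on the high side (0.983%) and 140 on the low side (1.19%), 2.17% in all, or 276 (2.34%) and 313 (2.65%) without DMSO hypoxia replicate 1. Leaving out each library in turn gave 44 to 276 on the high side and 53 to 313 on the low side. Of 46 integrated stress response genes 18 were on the high side (24 without that library). Chac1 had means of 10.8 FPKM untreated, 42.0 under hypoxia, 37.5 under MLN4924 and 68.7 under both. Its interaction was -1.01 ± 0.11 (adjusted p = 0.00185). On the log2 scale the joint rise of 2.57 was less than the sum of the single rises, 1.86 under hypoxia and 1.71 under MLN4924. Trib3, by contrast, was lower under both (69.6) than under hypoxia alone (88.9).

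Ptx3 was the most separate on the high side, with 6.97 ± 0.886 FPKM (SD, n = 3) untreated, 17.9 ± 3.30 under hypoxia, 22.3 ± 0.867 under MLN4924 and 88.8 ± 4.86 under both (adjusted p = 5.21e-05 for the largest of the 3 p-values). For Cdsn, Angptl6, Stard5 and Mib2 the difference of MLN4924 alone from untreated did not pass. The log2 differences were 0.06, -0.08, 0.11 and -0.18 (adjusted p = 0.795, 0.754, 0.413 and 0.479). For Mib2 the difference of hypoxia alone from untreated did not pass either (0.18, adjusted p = 0.390). Cdsn, a cell adhesion protein of the skin, had 2.76, 8.14, 2.93 and 20.5 FPKM, and Angptl6, an angiopoietin-like secreted factor, had 0.71, 5.26, 0.60 and 10.5. Stard5, a lipid transfer protein, and Mib2, a ubiquitin ligase of Notch ligands, had 22.1 and 9.16 FPKM under both treatments and at most 11.3 and 4.09 in the mean of any other group. Atf3 and Fbln5 were also among the 8 with the largest differences.

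Among the 8 genes with the largest differences on the low side, Nr1d1, the clock repressor REV-ERB alpha, was at 20.7 ± 0.261 FPKM untreated, 35.2 ± 5.46 under hypoxia, 13.6 ± 0.588 under MLN4924 and 5.89 ± 1.16 under both (SD, n = 3), with an interaction of -1.82 ± 0.18 (adjusted p = 0.00167). Dbp (0.31 FPKM under both) and Tef (5.64), PAR bZIP factors that act with it, were lowest there too. The linker histone gene H1f2 and the core histone genes H2bc4 and H4c9 were at 7.01, 8.04 and 9.21 FPKM under both and at no less than 17.8, 20.4 and 19.8 in the mean of any other group. Histone genes of 1 cluster are close in sequence, and reads may be shared between them. Egr1, an immediate early transcription factor, had 24.4, 12.2, 20.2 and 5.46 FPKM in the order untreated, hypoxia, MLN4924 and both. Of 48 G2/M genes 8 were on this side (10 without DMSO hypoxia replicate 1), Cdc20 among them.

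**Figure D5:**
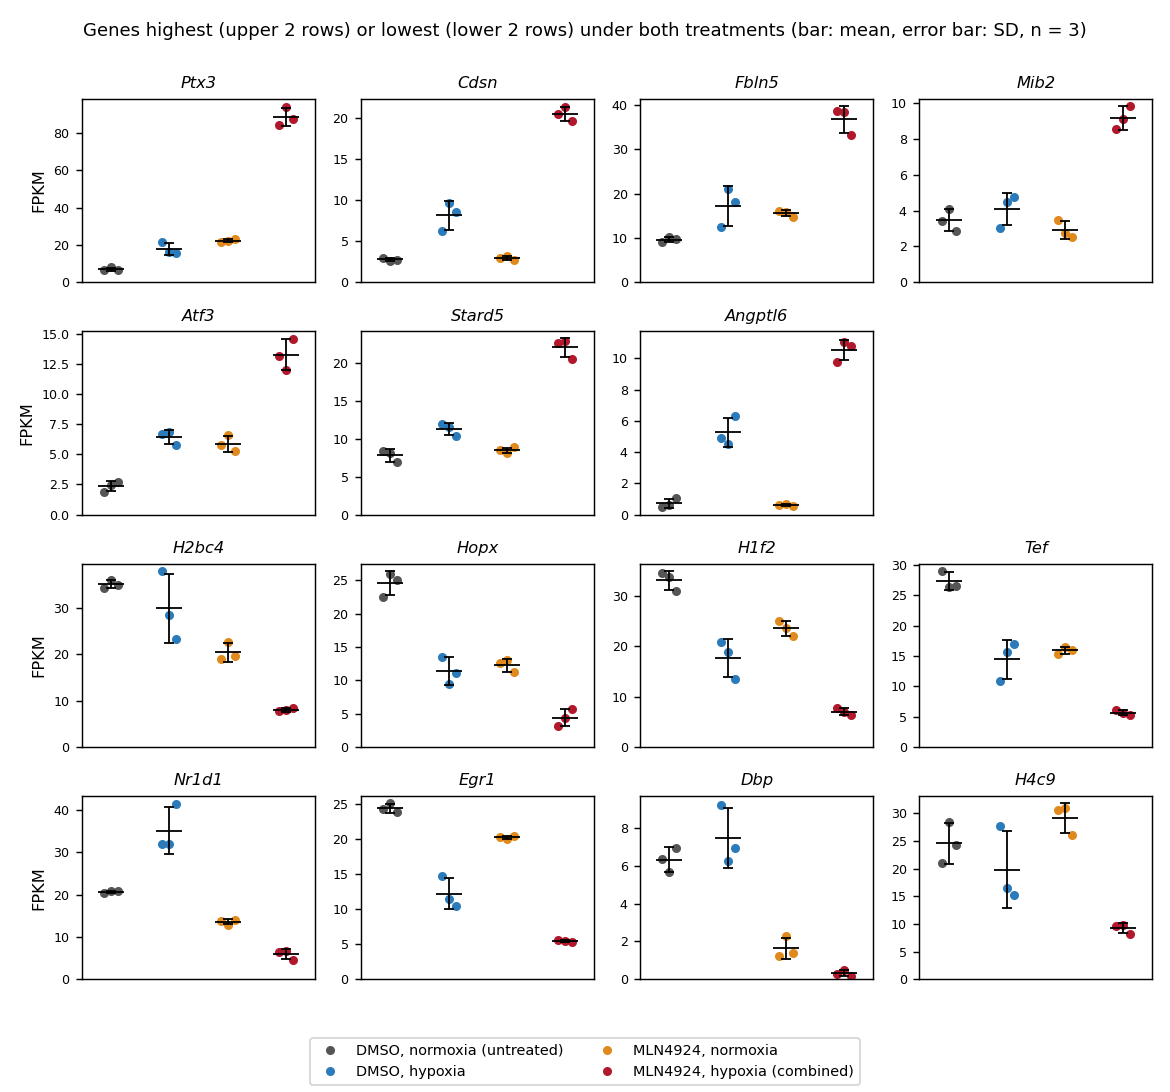
FPKM in each of the 12 libraries for 7 of the 8 genes on the high side (upper rows) and the 8 on the low side (lower rows) with the largest distance from the nearest other group, with the mean (bar) and SD (error bar, n = 3) and axes from 0. The red points of the combined treatment lie above or below the points of every other group in each panel.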

How the data were processed

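Total RNA of 12 GC-2 cultures in 4 groups of 3 was sequenced as paired reads with a kit whose strand setting is not given in the sources used here. The submitters' processing notes name fastp, STAR, RSEM 1.3.3 and mm39, with no parameters. The authors deposited 1 table of FPKM per gene symbol for all libraries; it holds no counts, so no count model, counting interval or detection floor was used. Without strand, reads of overlapping antisense genes cannot be told apart.

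Of 24770 symbols, 11796 passed a minimum of 1 FPKM in 3 or more of these 6 libraries and were tested on log2(FPKM + 1) with limma 3.58.1 (R 4.3.3), with an intensity trend and Benjamini-Hochberg adjustment. Only the 6 libraries entered the main comparison. Comparisons with single treatments, the interaction and the test against all 3 other groups, which takes the largest of 3 p-values, used all 12. The code was tested on simulated data. With 3 against 3 libraries an exact permutation test of 1 gene cannot go below 0.1. The labels call the replicates biological but do not describe how the cultures were separated. The p-values measure the spread between these cultures.

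The 32 gene lists and their members (934 names, 815 tested) were chosen with earlier results of these data known, so counts over a list carry no test. Text genes were the 12 largest rises and falls with no overlap and a mean of at least 5 FPKM, up to 4 called members per list, a fixed set of pathway genes, and the 8 highest and lowest genes of the test against all 3 groups, without predicted models. Promoters came from RefSeq on GRCm38.p6, a build other than the one named for the reads. The alternatives were other pseudocounts, filters, scalings, variance priors and sample sets, a replicate block, and leaving out each library. A few genes that this rule names are not reported here.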

Additional observations from a re-analysis of the deposited data

Results flagged for a closer look

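Among the genes named above, the effect of hypoxia differed between cells given MLN4924 and cells given DMSO for 27, by the interaction test in limma with Benjamini-Hochberg adjustment over all tested genes. All of them also passed without DMSO hypoxia replicate 1. Leaving out that library gave the most interaction calls, 416 positive and 270 negative, so passing there is a weak check. Whether the 27 pass without other libraries or with the replicate block, where fewer genes passed, was not tested. In the interaction test Cdt1 (adjusted p = 0.0436), Dbp (0.0412), Star (0.0388), Angptl6 (0.0376) and H2bc4 (0.0374) passed narrowly. Values are the hypoxia effect with MLN4924 minus the hypoxia effect with DMSO, on the log2(FPKM + 1) scale.

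A negative value means that the log2 change with hypoxia was lower when MLN4924 was present. Values were Nr1d1 -1.82, Trib3 -1.42, Adm -1.34, Slc7a11 -1.22, Dbp -1.19, Cdkn1a -1.15, Chac1 -1.01, H2bc4 -0.99, Cdc20 -0.968, Asns -0.896, Kif23 -0.83, Egr1 -0.758, Atf4 -0.622 and Jun -0.468. For Nr1d1 the effect changed sign: hypoxia raised it with DMSO (log2 0.72, adjusted p = 0.00186) and lowered it with MLN4924 (log2 -1.10, adjusted p = 0.000186).

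A positive value means that the log2 change with hypoxia was higher when MLN4924 was present. Values were Star 2.13, Ifit3b 1.46, Ifit3 1.41, Ifit1 1.19, Cdsn 1.19, Mib2 1.19, Cxcl10 1.06, Acta2 1.02, Angptl6 0.973, Isg15 0.847, Stard5 0.796, Nqo1 0.588 and Cdt1 0.37. Reads of Ifit3 and its paralog Ifit3b are hard to separate. The effect on Star changed sign, with means of 10.7 FPKM untreated, 4.46 under hypoxia, 2.17 under MLN4924 and 5.08 under both. For Acta2 hypoxia gave -0.89 with DMSO and 0.13 with MLN4924, and the latter did not pass (adjusted p = 0.279).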

How the results depend on the processing

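The counts of genes that rose or fell against untreated stayed within 1.5 times under all 17 alternatives tried, and no named gene reversed. Of 158 called named genes 138 kept their direction and call in every one.

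Counts that use all 12 libraries were less stable. When each library was left out in turn, genes higher than under MLN4924 alone ranged from 1069 to 2189. Positive interactions ranged from 43 to 416 and negative ones from 48 to 270, and genes beyond all 3 other groups from 44 to 276 on the high side and from 53 to 313 on the low side. The highest of each came without DMSO hypoxia replicate 1. The interaction counts fell by more than 1.5 times without any single library of the other 3 groups, and the cause was not tested.

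Deviations of same-numbered replicates of the combined and untreated groups correlated at 0.02, -0.02 and 0.05, and those of differently numbered ones at -0.06 to 0.04. These correlations run over all tested genes and leave out the single treatments. They cannot decide whether libraries of the same number share a batch. With the replicate block, 2120 genes rose and 3068 fell against untreated. The block left 57 positive and 73 negative interactions, and 73 genes beyond all other groups on the high side and 82 on the low side. The depth of the libraries is unknown, which limits what can be said of genes near 1 FPKM.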
